A study of Mus musculus with 6 samples.

Results

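Protein synthesis starts when initiation factors (eIFs) load the initiator tRNA onto the small ribosomal subunit, bring that subunit to the mRNA cap and move it to the start codon. Elongation factors (eEFs) then deliver each aminoacyl-tRNA and move the ribosome along. Oxidants are known to act on this machinery at the protein level, through phosphorylation of the alpha subunit of eIF2 and of eEF2, and several mRNAs of the machinery carry a TOP motif, a terminal oligopyrimidine tract that ties their translation to mTOR signalling. The measurements here are of mRNA, so they show transcript levels and not the activity or phosphorylation of any factor.

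The genes described are the translation initiation and elongation factors, chosen by symbol: those named Eif followed by a digit from 1 to 6 and letters or digits, without the Eif2ak kinases, plus Eef1a1, Eef1b2, Eef1d, Eef1g and Eef2. The rule found 57 of the 33006 genes in the count tables and used no measured value. The samples were primary pulmonary endothelial cells of C57BL/6 mice, grown in a commercial endothelial medium to 80% confluence. A control group of 3 libraries received water and an H2O2 group of 3 libraries received 300 uM hydrogen peroxide, an oxidant, in each case for 6 hours, and 100 ng of total RNA went into each library. Neither the animals' age and sex nor a separate culture or animal behind each replicate number is named, so the p-values rest on the spread among these libraries alone, and that spread may be technical.

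Depth was 22455388 to 27618679 gene counts per library. The endothelial markers summed to 4082 to 4168 CPM, the normalised read count scaled to a common library size, in controls and 4310 to 4338 with H2O2, with Pecam1, Tek and Emcn called higher among 9 tested and Cldn5 at or below 0.44 CPM. The part of this shift in the results was not tested. The leukocyte list, with 7 of its 8 genes in the tables, summed to 158 to 164 and 163 to 170.02 CPM, nearly all of it Cd68, with Cd3e at 0. Sums of the 6 fibroblast markers were 26.97 to 28.8 and 24.9 to 27.98 CPM with Col1a2 at 0, and those of the 7 smooth muscle and pericyte markers were 3.87 to 5.42 and 3.91 to 4.603 CPM. The 7 epithelial markers stayed at or below 1.61 CPM in every library with Sftpc and Scgb1a1 at 0, and the 3 mesothelial markers at or below 0.56 CPM with Wt1 and Upk3b at 0. By counts, the replicate 3 library of the H2O2 group stood apart from the others of its group, as the chi-square of its counts, per degree of freedom, was 8.61 and 10.96 against 2.71 for the other pair and 1.62 to 2.86 among controls. Its correlations of log2 CPM with the others (0.996 and 0.996) were like those among controls, and member calls that change without it are given beside the values. In these bulk samples, fewer cells of a type and less RNA per cell cannot be told apart.

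A total of 53 members had enough reads to be tested, and 20 of them changed. With H2O2, 4 members rose, Eef1b2, Eif3i, Eif5a and Eef1d, and 16 fell, the largest falls being those of Eif3d and Eif2b3 by the fitted log2 fold change. A change was called at an adjusted p under 0.05 in edgeR's quasi-likelihood test of all genes, and a log2 fold change is H2O2 over control. The members that rose were 7.55% of those tested, where the background was 9.70% of all 12924 tested genes. Those that fell were 30.2% of the tested members, where the background was 10.8%. Members are abundant genes, for which smaller changes can be called. Among the 6360 tested genes whose mean log2 CPM reached 5, a limit chosen after the values were seen, 14.1% rose and 17.6% fell, and among the 49 members above it 8.16% rose and 32.7% fell. This limit is a floor and does not match the sets in abundance. The median control mean of the tested members was 187.5 CPM.

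The changes were small. As a change in mean CPM, the called falls ran from -5.17% to -18.4% and the called rises from 6.42% to 25.8%, with a median size of 9.52%. Among called members, Eef1b2 and Eif3i were at least 1.2-fold higher and Eif3d at least 1.2-fold lower, and Eif2b3 was 1.19-fold lower. The median log2 fold change of the tested members was -0.04, and that of all tested genes was -0.004. By raw position of the libraries, 8 members had all H2O2 libraries above all controls and 23 had all below, which is 15.1% and 43.4% of those tested, against 16.5% and 18.2% of all tested genes. Above the abundance limit used for the calls, these shares were 16.3% and 46.9% of members, against 20.5% and 25.6% of genes. In all 20 called members the groups did not overlap, and 11 members whose groups did not overlap missed the threshold. Together the members' share of all gene counts was 2.28% ± 0.0107 in the control group and 2.18% ± 0.0319 in the H2O2 group (SD, n = 3 each). Such a sum is weighted towards the most abundant members, among them Eef2, whose mean was 3945 CPM in controls and 3423 with H2O2.

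**Figure D1:**
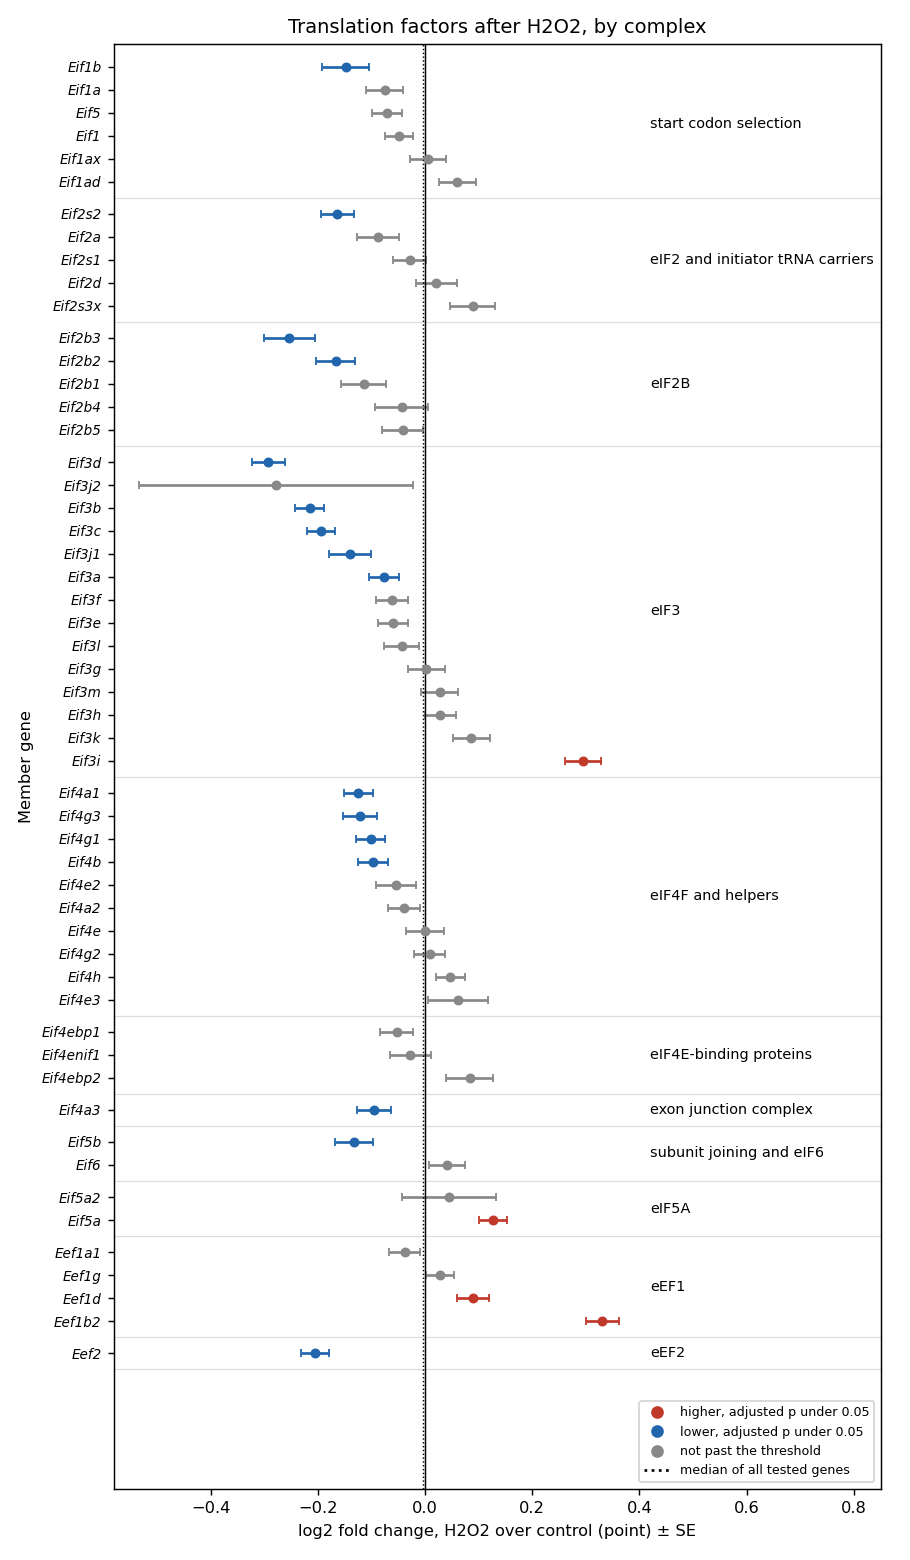
Log2 fold change (H2O2 over control, horizontal axis) of the 53 tested members, grouped by factor complex. Points are fitted values, bars are ± SE, red and blue mark members past the threshold, and the dotted line is the median of all tested genes; 16 members stand past the threshold on the left and 4 on the right, Eef1b2 farthest at 0.33.

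The starts of members' transcripts are shown because TOP mRNAs begin with a cytosine followed by pyrimidines. Of the cytosolic ribosomal protein genes, the best known TOP mRNAs, 75 of 78 tested rose, with a median log2 fold change of 0.35. The background was 9.70% of all tested genes. The class of shortest transcripts, described below, had a median of 0.10, and the part of length in the ribosomal protein rise was not tested. In the GENCODE M21 annotation, 7 of the 56 protein-coding members (12.5%) had a transcript that starts with C and at least 4 further pyrimidines, against 4.73% of 21951 protein-coding genes. By 1 representative transcript per gene, the longest, the shares were 3.57% and 2.31%. The first 20 bases of these transcripts are given with the tract in capitals.
Eef1b2: CTTTTTTTCCCTCagcgctg
Eef1d: CTCTCCTTTgcagtcctgag
Eif3f: CTCTTTCTCggcaagatggc
Eif3m: CTTTTCCggtcggcgtgttt
Eif2s3x: CTTTTCTCTCCgagcaagat
Eif4a2: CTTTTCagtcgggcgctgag
Eif2s1: CTCTTggttgactaaaactt
Eef1b2 and Eef1d rose in these libraries, and the other 5 of this group did not pass the test, among them Eif2s3x and Eif3f, whose tracts are at least as long as that of Eef1d. Annotated starts can be off by some bases, so the lack of a tract in another member says only that these letters do not begin its annotated transcripts. A longer list of 9 known TOP mRNAs among the members holds Eef1a1, Eef1b2, Eef1d, Eef1g, Eef2, Eif3e, Eif3f, Eif3h and Eif4b. Of these, 2 rose (Eef1b2 and Eef1d) and 2 fell (Eef2 and Eif4b), with a median log2 fold change of -0.04, and of the 44 tested members outside the list 2 rose and 14 fell, with a median of -0.05. Without control replicate 2, 1 gene of the list rose and 1 fell. Without control replicate 3 or H2O2 replicate 1, 1 rose and 2 fell, and without H2O2 replicate 3 or with an offset for length and GC content 2 rose and 1 fell.

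Promoters were read from RefSeq for build GRCm38.p6, each 250 bases before and 50 from the annotated start on, and 41 tested members had an entry. The ETS-type motif CCGGAAG, on either strand, was in 39.02% of them, against 20.1% of 9430 tested genes and 8.86% of all 32851 promoter entries. A gene was counted if any of its entries held a motif, whereas the share of all entries counts each entry singly, so these shares are unlike measures. The E-box CACGTG was in 26.8% of the members, 11.8% of the tested genes and 7.15% of all entries. Of 15 members that fell, 4 held the ETS motif and 5 the E-box. Among 24 members that did not pass the test, 10 held the ETS motif and 5 the E-box. Both members that rose and had an entry, Eef1b2 and Eif5a, held the ETS motif. For Eef1b2 the match lay just past the annotated start, and Eif5a held the motif in only 1 of its several entries. The form TGACNNNGC, the core of the antioxidant response element, was in 21.95% of members and 17.3% of tested genes. It too was in both of the 2 members that rose, in 3 of 15 that fell and in 4 of 24 that did not pass the test. With 2 genes, no motif can be called particular to the members that rose. Windows of 60 bases before the start and 20 from it on are shown for Eef1b2, which rose, and Eef2, the most abundant member that fell. A further window is that of Eif3c, 1 of 5 eIF3 genes that fell. Of the others, Eif3d also held the ETS motif, and Eif3a, Eif3b and Eif3j1 did not. Capitals mark matches, on either strand, to the ETS motif, the E-box, the cAMP response element TGACGTCA or the TATA motif spelled TATAAA.
Eef1b2: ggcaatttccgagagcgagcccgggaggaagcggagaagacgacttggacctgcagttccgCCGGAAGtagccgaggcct
Eef2: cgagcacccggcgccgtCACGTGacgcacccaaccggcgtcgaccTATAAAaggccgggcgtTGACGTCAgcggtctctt
Eif3c: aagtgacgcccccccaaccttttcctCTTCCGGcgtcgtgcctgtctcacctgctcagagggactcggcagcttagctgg
The Eef1b2 window is chr1:63176771-63176850 on the plus strand and does not hold the transcript start shown above with the TOP tract. The window of Eef2 is chr10:81176571-81176650 on the plus strand, and that of Eif3c is chr7:126566347-126566426 on the minus strand. The TGACGTCA form was in 2.44% of members and 3.67% of tested genes, and TATAAA was in 9.76% and 8.66%. Further forms searched were GCGCATGC (NRF1), in 12.2% and 5.99%, CCAAT, in 31.7% and 43.02%, and TGACTCA (AP-1), in 7.32% and 4.56%. These matches are letters in a window and say nothing of binding.

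Start codon selection rests on eIF1 and eIF1A, which hold the scanning ribosome open, and on eIF5, which triggers GTP hydrolysis by eIF2. Of 6 tested members, 1 fell (16.7%) and none rose, with a median log2 fold change of -0.06. For this group and those below, the background that fell was 10.8% of all tested genes and 17.6% above the abundance limit. The background that rose was 9.70% and 14.1%. The groups are small, and no group's share was tested against these backgrounds. Eif1b, a paralogue of Eif1, was at 47.7, 46.1 and 47.9 CPM in the controls and at 42.2, 41.9 and 43.7 with H2O2. It fell by 0.15 on the log2 scale (SE 0.0439, adjusted p = 0.0162), and all H2O2 libraries lay below all controls. That call was lost in 4 of the fits that leave out a library and in DESeq2's test, and the log2 fold change was -0.24 when the fit held a length and GC offset (adjusted p = 6.67e-05). On the opposite strand 12.7% of its exon bases overlap D830035M03Rik. Eif1 itself, the most abundant of the group, was at 603, 593 and 598 CPM in controls and at 578, 573 and 583 with H2O2. These groups did not overlap either, but the log2 fold change of -0.05 (SE 0.0264, adjusted p = 0.21) missed the threshold. Eif1a and Eif1ax, which both encode eIF1A in the mouse, had log2 fold changes of -0.08 and 0.01. Eif5 had -0.07, and Eif1ad, whose human counterpart takes part in maturation of the small subunit, had 0.06. None of these 4 passed the test, although Eif5 passed it without H2O2 replicate 3.

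eIF2 carries the initiator tRNA, and phosphorylation of its alpha subunit is the switch of the integrated stress response. Of the 5 tested members that encode eIF2 or alternative carriers, 1 fell (20%). Eif2s2, the beta subunit, was at 496, 522 and 502 CPM in controls and at 452, 434 and 471 with H2O2, so all H2O2 libraries were below all controls. It fell by 0.16 on the log2 scale (SE 0.0313, adjusted p = 3.69e-04). Of its transcript's 50-base words, 27.8% also occur in transcripts of another annotated gene, where reads may be set aside or split. Eif2s1, the alpha subunit with the phosphorylation site, had a log2 fold change of -0.03 (adjusted p = 0.573). The X-linked gamma subunit gene Eif2s3x had 0.09 (adjusted p = 0.14). Eif2a and Eif2d, which can carry initiator tRNA outside eIF2, had -0.09 and 0.02 and did not pass the test. Without H2O2 replicate 3, Eif2a passed it.

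eIF2B is the exchange factor that reloads eIF2 with GTP, and phosphorylated eIF2 blocks it. All 5 subunits had negative log2 fold changes, in the main test and in all 17 alternative settings, and 2 of them fell (40%). Eif2b3, the gamma subunit of the catalytic part, was at 61.2, 56.5 and 63.8 CPM in controls and at 48.7, 49.6 and 53.7 with H2O2. It fell by 0.25 on the log2 scale (SE 0.0477, adjusted p = 3.10e-04), with the groups apart. Eif2b2, the beta subunit of the regulatory part and the most abundant of the group, was at 103, 105 and 104 CPM in controls and at 94.1, 89.1 and 94.6 with H2O2. It fell by 0.17 (SE 0.0359, adjusted p = 0.00124). The other subunits did not pass the test: the alpha subunit Eif2b1 had -0.11 (adjusted p = 0.0522), the delta subunit Eif2b4 -0.04 and the catalytic epsilon subunit Eif2b5 -0.04. Eif2b1 passed it without control replicate 1 and without H2O2 replicate 3.

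eIF3 is the scaffold on the small subunit that gathers the other initiation factors. Of its 14 tested genes 5 fell (35.7%) and 1 rose (7.14%), with a median log2 fold change of -0.06. The largest fall and the second largest rise among called members both lay in this complex. Eif3d, whose protein can bind the cap of selected mRNAs, was at 251, 245 and 258 CPM in controls and at 199, 206 and 209 with H2O2. It fell by 0.29 on the log2 scale (SE 0.031, adjusted p = 8.30e-08), which was 1.23-fold. The gene lies at chr15:77958998-77970813 on the minus strand, and 43.3% of its exon bases overlap Gm17638 on the opposite strand. The strand setting of the counting is not given in the sources used here, so reads of that pair cannot be told apart.

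Eif3a, Eif3b and Eif3c fell as well. Eif3b was at 607, 626 and 601 CPM in controls and at 517, 528 and 535 with H2O2. It fell by 0.22 (SE 0.0277, adjusted p = 2.04e-06). Eif3c was at 712, 731 and 729 CPM in controls and at 627, 633 and 639.7 with H2O2, and fell by 0.19 (SE 0.0264, adjusted p = 4.83e-06). In both genes every H2O2 library was below every control. Eif3a, the most abundant of the complex by mean CPM over all 6 libraries although below Eif3c in the control mean, was at 722, 709 and 710.2 CPM in controls and at 697, 673 and 659.6 with H2O2. Its fall of 0.08 on the log2 scale (SE 0.0275, adjusted p = 0.049) was close to the threshold, and it was called in 5 of 17 alternative settings. The call was lost without any 1 of the control libraries, without H2O2 replicate 2 and without H2O2 replicate 3.

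Eif3i, which with Eif3g and Eif3b forms a mobile module of the complex, went the other way. It was at 109, 111 and 111 CPM in controls and at 135, 132 and 139 with H2O2, with all H2O2 libraries above all controls. It rose by 0.30 on the log2 scale (SE 0.0336, adjusted p = 2.86e-07), which was 1.23-fold. Its module partner Eif3g had a log2 fold change of 0.003 (adjusted p = 0.969). Eif3j1, a loosely bound subunit, fell by 0.14 (adjusted p = 0.00988), but 54.8% of its 50-base words occur in other genes, 19.0% of its exon bases overlap genes on the opposite strand, and the call was lost without H2O2 replicate 2. Its near copy Eif3j2, with 91.8% of words shared and 22 to 31 counts per library, had -0.28 (SE 0.256, adjusted p = 0.495). The remaining subunits did not pass the test: Eif3f had -0.06, Eif3e -0.06, Eif3l -0.04, Eif3m 0.03, Eif3h 0.03 and Eif3k 0.09. Eif3k passed it with upper-quartile factors and with the stricter filter.

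**Figure D2:**
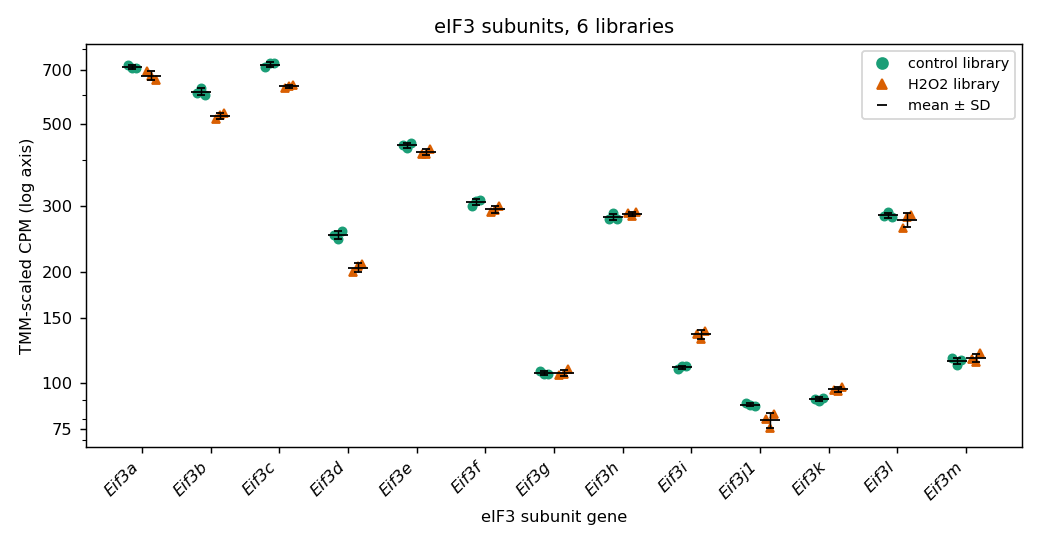
TMM-scaled CPM (log axis) of 13 eIF3 subunit genes in each library; circles are controls, triangles are H2O2 and the dashes with bars are mean ± SD (n = 3), and Eif3j2, near 1 CPM, is left out. Eif3b, Eif3c and Eif3d sit lower in all H2O2 libraries, and Eif3i sits higher, between 132 and 139 against 109 to 111.

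eIF4F joins the cap-binding protein eIF4E, the scaffold eIF4G and the helicase eIF4A. Of 10 tested genes of this group 4 fell (40%) and none rose, with a median log2 fold change of -0.05. Eif4a1, the main helicase, was at 1086, 1099 and 1106 CPM in controls and at 999.6, 993 and 1027 with H2O2, all below the controls. It fell by 0.12 (SE 0.0266, adjusted p = 0.00119). Of its 50-base words 65.3% occur in other genes' transcripts. Its paralogue Eif4a2 had -0.04 (adjusted p = 0.398).

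The scaffold Eif4g1 was at 1002, 991 and 991 CPM in controls and at 930.2, 953 and 899 with H2O2, and fell by 0.10 (SE 0.0275, adjusted p = 0.00898). With the length and GC offset it was at -0.06 (adjusted p = 0.0871) and not called. The related scaffold Eif4g3 was at 265, 254 and 254 CPM in controls and at 242, 241 and 227 with H2O2, and fell by 0.12 (SE 0.0318, adjusted p = 0.00706). Both had all H2O2 libraries below all controls. Eif4g2, a homologue that does not bind eIF4E and the most abundant of the group, was at 1329, 1380.3 and 1390.1 CPM in controls and at 1336, 1396 and 1391 with H2O2. These groups overlapped, and its log2 fold change was 0.01 (SE 0.0282, adjusted p = 0.878).

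Eif4b, a helper of the helicase, was at 802, 806 and 785 CPM in controls and at 749.5, 770.3 and 718 with H2O2, with the groups apart. It fell by 0.10 (SE 0.0284, adjusted p = 0.0153), and this call was lost without control replicate 2, without H2O2 replicate 3 and with the length and GC offset, where the value was -0.06 (adjusted p = 0.0893). The other helper, Eif4h, had 0.05. The cap-binding gene Eif4e had 0.001 (SE 0.0354, adjusted p = 0.992). Its relatives Eif4e2, whose protein represses cap-dependent translation, and Eif4e3 had -0.05 and 0.06, and neither passed the test.

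The eIF4E-binding proteins hold eIF4E away from eIF4G until mTOR phosphorylates them. None of 3 tested genes passed the test. Eif4ebp1, the most abundant, was at 429, 447 and 453 CPM in controls and at 417, 421 and 444 with H2O2. The groups overlapped, and its log2 fold change was -0.05 (SE 0.0305, adjusted p = 0.246). Without H2O2 replicate 3, which was the highest of its group, Eif4ebp1 passed the test. Eif4ebp2 had 0.08 (adjusted p = 0.197), and Eif4enif1, which carries eIF4E into the nucleus and to processing bodies, had -0.03.

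Eif4a3, a relative of the eIF4A helicase that works in the exon junction complex and not in initiation, was at 178, 188 and 189 CPM in controls and at 175, 170.2 and 175 with H2O2. It fell by 0.10 (SE 0.032, adjusted p = 0.0347), with the groups apart. The call was lost in 4 of the 6 fits that leave out a library. Eif5b, the GTPase of subunit joining, was at 372, 349 and 340.3 CPM in controls and at 337, 305 and 326 with H2O2. It fell by 0.13 (SE 0.0354, adjusted p = 0.00807) with the groups apart, but not without control replicate 1 or without H2O2 replicate 2, and 16.8% of its exon bases overlap Rev1 on the opposite strand. Eif6, which keeps free large subunits from joining, had 0.04 (adjusted p = 0.439).

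eIF5A carries the modified residue hypusine and helps ribosomes past difficult peptide bonds. Eif5a was at 869, 884 and 883 CPM in controls and at 973, 946 and 960.4 with H2O2, all above the controls. It rose by 0.13 on the log2 scale (SE 0.0263, adjusted p = 8.06e-04), which was 1.09-fold. With the length and GC offset the log2 fold change was 0.07 (adjusted p = 0.0259). Its paralogue Eif5a2, near 10 CPM, had 0.04 (adjusted p = 0.78).

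The eEF1 complex delivers aminoacyl-tRNA. eEF1A carries the tRNA, and the other subunits reload eEF1A with GTP or hold the complex together. Eef1b2, an exchange factor, showed the largest rise of all tested members by log2 fold change. It was at 269, 257 and 268 CPM in controls and at 344, 321 and 333 with H2O2, with the groups far apart. It rose by 0.33 (SE 0.0312, adjusted p = 1.14e-08), which was 1.26-fold. Eef1d, the second exchange factor, was at 230, 226 and 228 CPM in controls and at 248, 236 and 243 with H2O2. It rose by 0.09 (SE 0.0297, adjusted p = 0.0321) with the groups apart. This call was lost without control replicate 2, control replicate 3 or H2O2 replicate 1.

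Eef1a1, the tRNA carrier itself and the most abundant member per kilobase, was at 3259, 3422 and 3314 CPM in controls and at 3277, 3144 and 3314 with H2O2. The groups overlapped, and the log2 fold change was -0.04 (SE 0.0284, adjusted p = 0.386). Eef1g, the structural subunit, had 0.03 (adjusted p = 0.51). Of the 50-base words of Eef1a1 and Eef1g, 60.6% and 64.3% occur in other genes' transcripts. Eef2, which moves the ribosome to the next codon, was at 3876, 4020.2 and 3940 CPM in controls and at 3379, 3424 and 3465 with H2O2. It fell by 0.21 on the log2 scale (SE 0.0266, adjusted p = 2.34e-06), with every H2O2 library below every control. Among the elongation genes, then, Eef1b2 rose, Eef2 fell, and Eef1a1 and Eef1g did not pass the test. The smaller rise of Eef1d was called in only 3 of the fits that leave out a library.

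**Figure D3:**
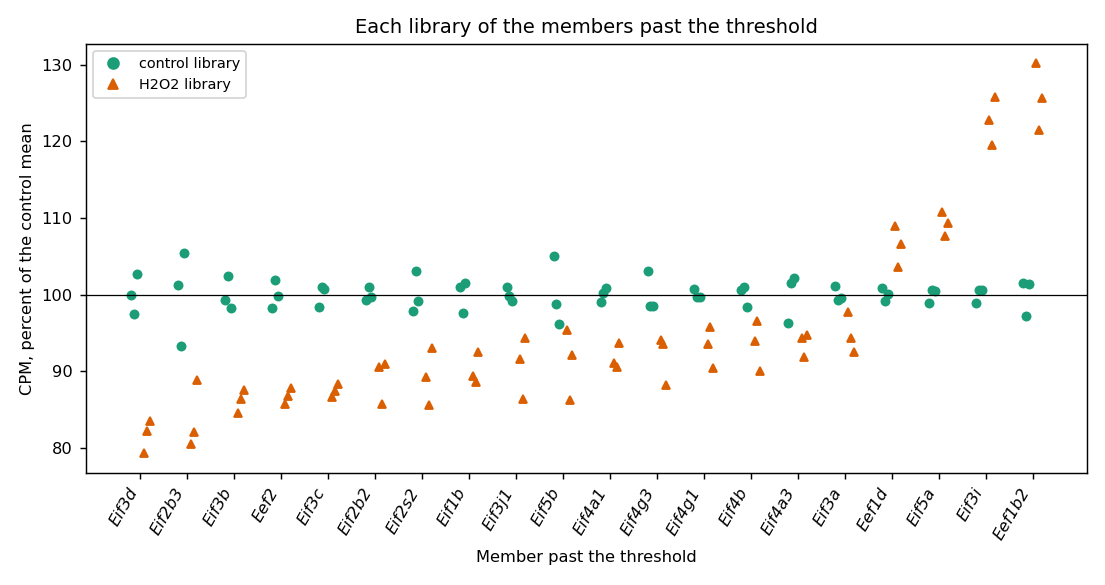
CPM of each library as a percent of the gene's control mean for the 20 members past the threshold, ordered by log2 fold change; circles are control libraries and triangles are H2O2 libraries. In each gene the triangles lie on 1 side of all circles, with the Eif3d mean changed by -18.4% and the Eef1b2 mean by 25.8%.

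Levels between genes were compared as CPM per kilobase of exon. Eef1a1 led in controls at 1337, followed by Eef2 at 1187, and the next were Eif5a at 370, Eif1 at 285, Eef1g at 273 and Eif4a1 at 253. With H2O2 the first 3 places were the same, at 1302, 1029.7 and 404. Within eIF3 the level per kilobase ran in controls from 206 for Eif3c to 14.97 for Eif3j1, with Eif3j2 at 0.48, and Eif3i stood at 29.8 before and 36.5 after H2O2. Exon length is the union over annotated transcripts, so genes with long rarely used exons come out low. The cap-binding gene Eif4e, at 20.8 in controls, was below its inhibitor Eif4ebp1, at 202.

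Untested members were near or at 0. Eif2s3y, the Y-linked copy of the gamma subunit gene, and Eif2c5 had 0 counts in all 6 libraries, which allows up to 0.109 to 0.134 CPM by a limit of 3 counts that covers counting error only. Eif2c was the older prefix of the Argonaute genes, and the annotation lists Eif2c5 as a long non-coding RNA. Eif4e1b, an oocyte form of the cap-binding protein, had 1 count in control replicate 3 and 1 in H2O2 replicate 2. Eif4ebp3 had 4, 2 and 2 counts in controls and 1, 1 and 0 with H2O2.

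**Figure D4:**
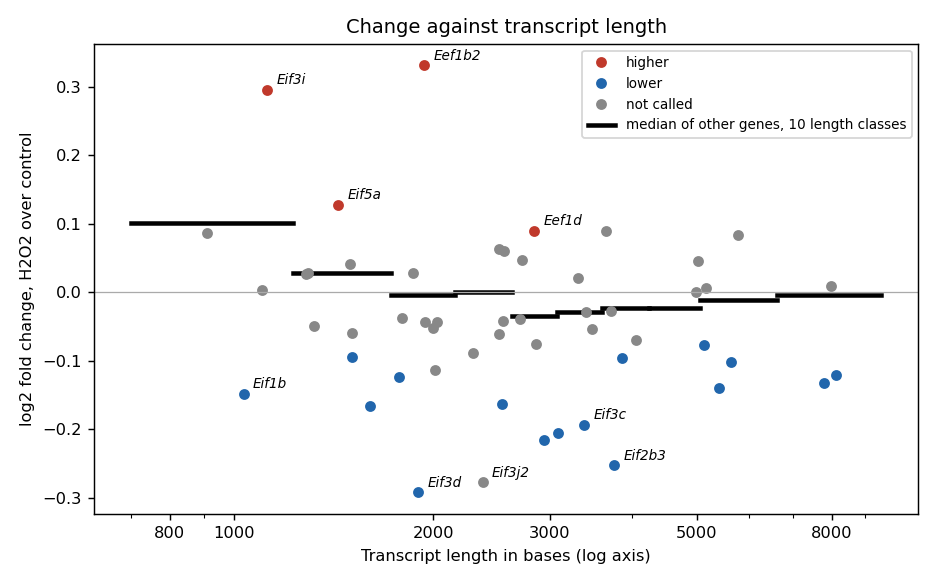
Log2 fold change (H2O2 over control) of the 53 tested members against transcript length (log axis, longest annotated coding transcript). Black bars are medians of other tested genes in 10 classes of like size by length, the outermost cut to the plotted range; the bar of the shortest class stands at 0.10 and members lie on both sides of the bars, 18 above and 35 below.

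Transcript length moved with the treatment contrast. Among other tested genes split into 10 classes by length, the shortest class had a median log2 fold change of 0.10, the next a median of 0.03, and the remaining classes medians from -0.04 to -0.0003. Spearman's rho between length and log2 fold change was -0.14 over 12177 other genes and -0.17 over 53 members. These are descriptions across genes of 1 set of libraries. By the longest annotated coding transcript, Eif3i and Eif5a, which rose, have 1123 and 1437 bases and Eef1b2 has 1939. For Eef1b2 that transcript is not the one shown above with a TOP tract, whose length was not used. With an offset for length and GC content, Eif3i had a log2 fold change of 0.22, Eif5a 0.07 and Eef1b2 0.34, and all 3 remained called. With the same offset, Eif4b and Eif4g1 were at -0.06 and -0.06 and were no longer called (adjusted p = 0.0893 and 0.0871), while Eif1, Eif3g, Eif4ebp2, Eif4h and Eif5 were. Eif3g changed sign there. The part of length in the members' changes was otherwise not tested.

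**Figure D5:**
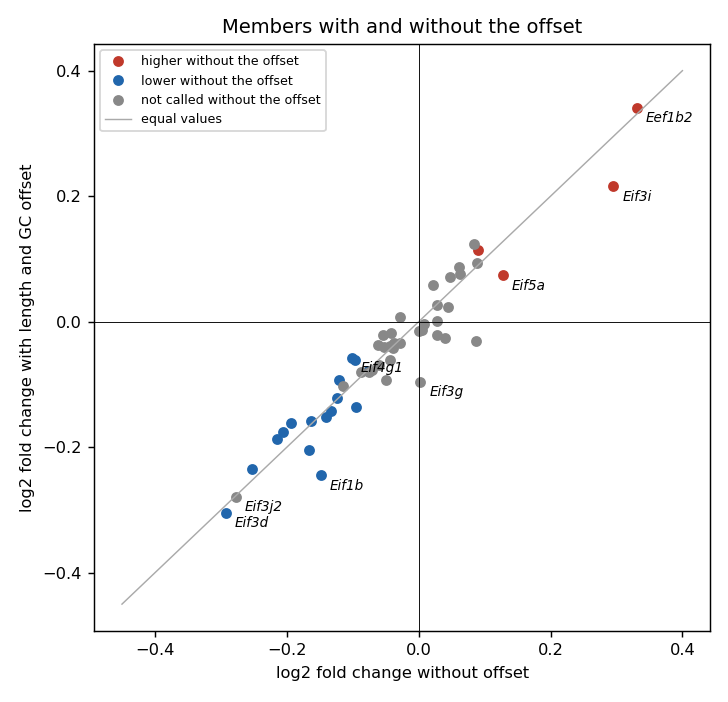
Log2 fold change of each tested member without (horizontal) and with (vertical) the offset for transcript length and GC content; colours give the call without the offset and the grey line marks equal values. Most points lie near the line, Eif3i moves from 0.30 to 0.22, Eif5a from 0.13 to 0.07 and Eif3g from 0.003 to -0.10.

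Genes that act on these factors were described from 6 further lists. Of the 6 tested genes for eIF2 kinases and the eIF2 phosphatase, 1 fell and none rose. Ppp1r15a, the inducible phosphatase subunit that reverses eIF2 phosphorylation, was at 143, 139 and 136 CPM in controls and at 96.8, 96.8 and 97.4 with H2O2. It fell by 0.53 (SE 0.0337, adjusted p = 1.01e-11), a larger change in size than that of any tested member. The kinases did not pass the test: Eif2ak1 had 0.003, Eif2ak2 -0.05, Eif2ak3 -0.04 and Eif2ak4 -0.11.

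Of 15 genes of mTOR, S6 kinase and MNK signalling, 4 fell and none rose. Larp1, which binds TOP mRNAs, fell by 0.20, Tsc2 by 0.13, Rptor by 0.12 and Rheb by 0.11. Tsc2 is an inhibitor of the pathway, and Rptor and Rheb are its components. Of 9 tested genes among other elongation factors and modifiers, 3 fell and 1 rose. Eef2k, the kinase that inhibits eEF2, fell by 0.15, and Dph5, of the diphthamide pathway that modifies eEF2, fell by 0.17. Dph6, of the same pathway, rose by 0.21, and Eef1e1, of the aminoacyl-tRNA synthetase complex, fell by 0.28.

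Of 8 tested genes of release and recycling 3 fell, Hbs1l by 0.19, Pelo by 0.16 and Etf1 by 0.09. The first pair rescue stalled ribosomes and Etf1 reads stop codons. Of 5 poly(A)-binding genes, Pabpc4 fell by 0.12, whereas Pabpc1 had a log2 fold change of 0.04 and did not pass the test. Of 9 mitochondrial translation factors, Tufm, the mitochondrial counterpart of eEF1A, fell by 0.13 and 8 did not pass the test. Over these 6 lists the share that fell ran from 11.1% to 37.5%, beside 30.2% of the tested members and 10.8% of all tested genes.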

How the data were processed

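The authors deposited raw counts of reads for each gene symbol in a table for each library. The tools named, per the submitters' processing notes, are HTSeq, STAR 2.5.3, DESeq2, cutadapt and bcl2fastq 2.17.1.14, with build mm10. The annotation and strand setting are not given in the sources used here. The 5 HTSeq summary classes were left out. They include reads with no feature (4.76% to 5.46% of all counted reads), ambiguous reads (3.17% to 3.30%) and reads aligned to several places (11.03% to 11.7%). The reads aligned to several places were 11.4% to 11.7% in controls and 11.03% to 11.13% with H2O2, so the groups did not overlap. The part of this difference in the values of members that share words with other genes was not tested.

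From these counts, genes passing filterByExpr were tested by the quasi-likelihood method of edgeR 4.0.16 in R 4.3.3, on TMM-scaled libraries, with a model of treatment alone. Adjustment ran over all 12924 tested genes by the Benjamini-Hochberg method at 0.05, and standard errors come from the same fit. CPM are TMM-scaled. The fits were tested on simulated data. Lengths, overlaps, shared words of 50 bases and transcript starts came from GENCODE M21, on the same assembly as mm10, with lengths for 94.6% of tested genes and all 53 tested members. Promoters came from RefSeq, with entries for 43 of 57 members.

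The 17 alternatives were other scaling factors, DESeq2 1.42.0, limma-voom (limma 3.58.1), looser and stricter filters (CPM of at least 1), a replicate block, a loess offset for length and GC (span 0.3) with and without the block, and leaving out each library. The members and lists were chosen with earlier results of these data known. Every tested member was named. Values of every library were given for members past the threshold whose groups did not overlap, up to the 4 with the smallest p per complex, and for each complex's most abundant member.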

Additional observations from a re-analysis of the deposited data

How the results depend on the processing

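Across the 17 alternatives, 3 to 6 members were called higher and 11 to 18 lower. Leaving out a library gave 3 or 4 higher and 11 to 18 lower members, 891 to 1178 higher genes and 926 to 1313 lower genes, where the lowest count of lower genes, 926 against 1395 with all libraries, was without H2O2 replicate 1. Of the 20 called members 12 were called in every alternative, which were Eif2b2, Eif2b3, Eif2s2, Eif3b, Eif3c, Eif3d, Eif4a1, Eif4g3 and Eef2 among those that fell and Eif3i, Eif5a and Eef1b2 among those that rose. DESeq2's test called 4 members higher and 13 lower, without Eif1b, Eif3a and Eif4a3. Of 900 member values under alternatives 820 kept direction and call, 17 became called, 36 lost the call, 25 changed sign without a call, and 2 reversed with a call. Those 2 are Eif3g, with 0.003 in the main test, -0.096 with the length and GC offset and -0.096 with the offset and the replicate block, and the cause was not tested beyond the construction of the offset.

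With the replicate number as a block, 4 members were called higher and 17 lower, adding Eif2b1, and 1294 genes higher and 1444 lower. Same-numbered libraries did not deviate together (correlations of 0.002, 0.03 and -0.026), so the numbers were not taken to pair them. With 3 libraries a group, the median SE of a tested member was 0.032 on the log2 scale. The smallest called change in the main test was that of Eif3a, -5.17% in mean CPM, and smaller changes may have been missed. How many reads fell on copies of a member was not measured.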

Other observations

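Paralogue pairs were described by the share of the less abundant gene in the pair's summed CPM per kilobase. Eif1b made up 12.8% ± 0.173 of Eif1 and Eif1b in the control group and 12.1% ± 0.165 in the H2O2 group (SD, n = 3 each), with all H2O2 libraries below all controls. Eif4a2 made up 13.6% ± 0.349 of Eif4a1 and Eif4a2 and 14.3% ± 0.241 with H2O2, with all H2O2 libraries above all controls. In the pairs Eif4g3 with Eif4g1, Eif5a2 with Eif5a, Eif1ax with Eif1a, Eif4e2 with Eif4e and Eif4ebp2 with Eif4ebp1 the groups overlapped. For single genes, the groups did not overlap in 16.5% (H2O2 higher) and 18.2% (H2O2 lower) of all tested genes. Of the 50-base words of Eif4a1, 65.3% occur in other genes' transcripts. None of these shares was tested.

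The elongation factors' share of all gene counts was 0.846% ± 0.0107 in the control group and 0.798% ± 0.0171 in the H2O2 group, and that of the initiation factors 1.44% ± 0.00246 and 1.39% ± 0.0155 (SD, n = 3 each). Of the 5 elongation factors only Eef2 was called lower, from a mean of 3945 to 3423 CPM, and 2 were called higher. Their median log2 fold change was 0.03, so the lower share is not a fall of the whole group. The share of the cytosolic ribosomal protein genes was 2.90% ± 0.0639 and 3.64% ± 0.1002. In controls, therefore, the members as a whole took a smaller share than the ribosomal proteins, and with H2O2 the gap was wider in all 3 libraries than in any control.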
